A study of Mus musculus with 14 samples.

Results

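The 61 genes described here encode developmental transcription factors of the homeobox, Pax and T-box families, and they were followed through the H3K4me3 peaks of LSK cells. They were defined by symbol, as the protein-coding genes of mouse named Pax (except Pax5, which makes B cells), Tbx, Lhx, Nkx, Dlx or Irx with a number. The sine oculis homeobox family, to which Six5 belongs, was included. The rule used no peak, though it was set with earlier results of these data known. The rule gave 8 Pax, 13 Tbx, 8 Lhx, 14 Nkx, 6 Dlx, 6 Irx and 6 sine oculis homeobox genes, 61 of 21441 protein-coding genes with a known start. LSK cells (Lin-Sca1+cKit+) are the stem and progenitor compartment of the bone marrow, sorted here from C57BL/6J male mice. HFD mice ate a diet with 60% of its calories from fat and LFD mice one with 10%, for 16 to 20 weeks after purchase at 3 to 4 weeks of age, and both diets shared the strain and the sort. By the paper's methods the H3K4me3 profiles came from CUT&Tag, in which a transposase tethered by an antibody cuts adapters into the marked chromatin. The sample titles read CUT&RUN instead. There were 3 HFD-LSK and 4 LFD-LSK libraries, with 1 deposited peak list each. The labels do not say whether libraries came from separate mice, so any p-value measures only the spread between libraries. The 7 IgG libraries were not analyzed here.

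H3K4me3 is trimethylation of lysine 4 of histone H3, a mark of the starts of active and poised genes. In embryonic stem cells many starts of homeobox, Pax and T-box genes carry H3K4me3 together with the Polycomb mark H3K27me3, a state called bivalent, and lineages that never use the gene often keep it silent under Polycomb. These factors lay out body axes and organs: Pax genes the eye, kidney, muscle and thyroid, T-box genes the heart and limbs, LIM homeobox (Lhx) genes neurons and the pituitary, and the Nkx, sine oculis, Dlx and Irx genes the heart, gut, head, face and neural tube. Most have no known part in blood, Tbx21 (T-bet, of T and NK cells) being the clearest exception.

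The lists held 6921 to 13094 peaks, and 79.3% to 91.6% of the peaks lay at the start of a coding gene on the mouse build GRCm38. A gene was counted as called in a list when a peak overlapped 1 kb either side of any of its starts. The markers matched the sort: of 10 stem and progenitor genes, 6 to 9 were called per list, Kit, Cd34, Gata2, Meis1 and Mecom in all 7, whereas no T cell, B cell, mature myeloid or endothelial marker was called in any list. Ly6a, which encodes Sca1, was not called.

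Few of the regulators were called. In HFD-LSK, 2, 14 and 16 of the 61 carried a peak in replicates 1, 2 and 3, or 3.28%, 23.0% and 26.2% (Wilson 95% intervals 0.904% to 11.2%, 14.2% to 34.9% and 16.8% to 38.4%, covering counting error only). In LFD-LSK, 1, 3, 5 and 4 did in replicates 1 to 4, or 1.64%, 4.92%, 8.20% and 6.56%. All coding genes were called far more often, at 42%, 52.5% and 46.2% in the HFD-LSK lists and 35.4%, 45.7%, 43.9% and 31.1% in the LFD-LSK lists. In each of the 7 lists the regulators' share lay below that of all coding genes. The intervals treat the 61 genes as independent draws. A fixed list with neighboring genes of 1 family is not such a draw, so they are no test of this difference. Over the lists, 22 of the 61 (36.1%) were called at least once, against 54.6% of coding genes. The other 39 (63.9%) were called in no list, as were 45.4% of coding genes. None was called in all 7 lists, where 22.3% of coding genes were.

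**Figure D1:**
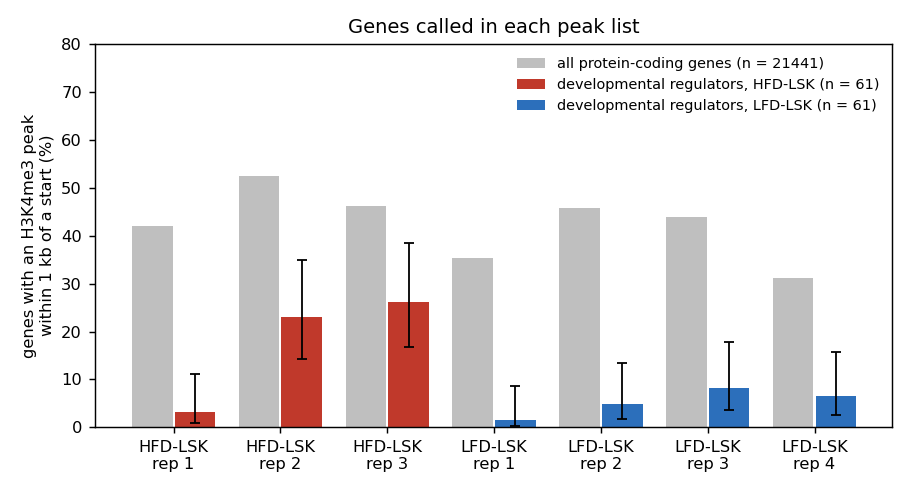
Share of genes (y axis, percent) with an H3K4me3 peak within 1 kb of a start in each of the 7 lists (x axis), for all 21441 protein-coding genes (grey) and for the 61 regulators (red, HFD-LSK; blue, LFD-LSK; error bars, Wilson 95% intervals). Each colored bar is lower than its grey neighbor, and only HFD-LSK replicates 2 and 3 exceed 10.5%, the mean of the 7 lists.

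The CpG content of the starts is given beside these shares, and its part in them was not tested. A start was described by its ratio of observed to expected CpG dinucleotides over 500 bp on either side, and CpG-rich starts are those that usually carry the mark. Of the regulators, 42 of 61 (68.9%) reached 0.6, against 52.3% of coding genes. Of those 42, 17 (40.5%) were called at least once, whereas 87.1% of coding genes with such a ratio were. Within single lists the share ran from 2.38% to 28.6% for the CpG-rich regulators and from 54.1% to 84.6% for the CpG-rich coding genes. The median ratio within this class was 0.70 for regulators and 0.78 for coding genes. Below 0.6 the shares lay closer together, at 5 of 19 regulators (26.3%) and 29.5% of coding genes. The median ratio was 0.67 for called regulators and 0.66 for those never called, whereas it was 0.74 and 0.26 for called and never called coding genes.

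**Figure D2:**
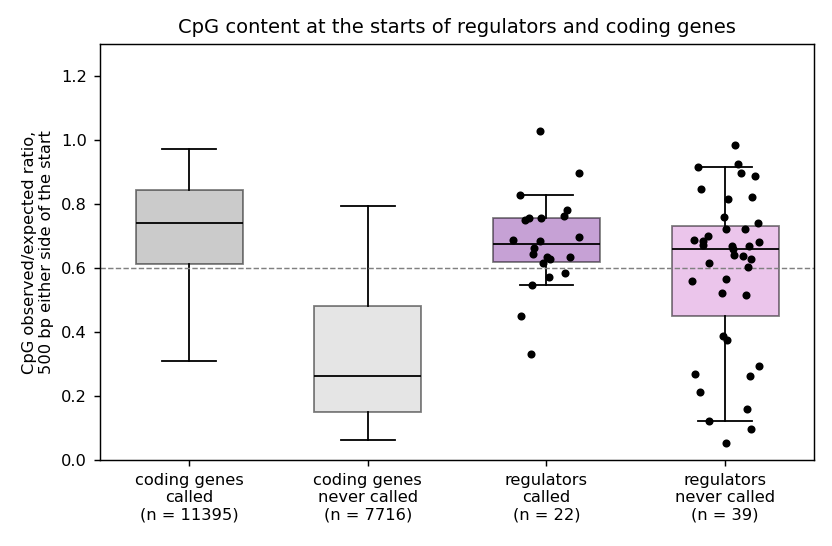
CpG observed/expected ratio within 500 bp of the start (y axis) for coding genes, regulators included, and for the regulators, each divided into genes called in at least 1 list and in none. Boxes give the quartiles and median, whiskers the 5th and 95th percentiles, points single regulators, and the dashed line a ratio of 0.6, which both regulator medians (0.67 and 0.66) exceed.

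The stretches of 250 bases before the starts of 3 regulators are shown as examples of starts with and without a call. The CpG ratio over 500 bp on either side was 0.57 for Nkx2-3, below 0.6, 1.03 for Tbx1 and 0.64 for Nkx1-2. Nkx2-3 (chr19:43612075-43612324, plus strand) and Tbx1 (chr16:18590672-18590921, minus strand) are the regulators whose stretch lay under a peak in the most lists, 5 and 2, among those whose stretch overlaps no coding exon. Nkx1-2 (chr7:132599638-132599887, minus strand) is the never called one, by the same limit, whose CpG count was nearest the median of the never called. The sequences are RefSeq's on GRCm38.p6, read 5′ to 3′ with each CpG in capitals.
Nkx2-3: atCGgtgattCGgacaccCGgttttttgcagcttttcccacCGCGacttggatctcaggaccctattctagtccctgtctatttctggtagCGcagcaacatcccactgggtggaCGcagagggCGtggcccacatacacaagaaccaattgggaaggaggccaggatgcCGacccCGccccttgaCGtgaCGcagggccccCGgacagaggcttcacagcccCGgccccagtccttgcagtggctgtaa
Tbx1: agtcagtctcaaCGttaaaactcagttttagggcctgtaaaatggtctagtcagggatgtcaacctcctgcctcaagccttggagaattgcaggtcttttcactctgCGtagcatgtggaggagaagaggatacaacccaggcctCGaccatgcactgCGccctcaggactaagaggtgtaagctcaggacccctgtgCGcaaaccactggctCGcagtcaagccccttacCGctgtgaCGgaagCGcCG
Nkx1-2: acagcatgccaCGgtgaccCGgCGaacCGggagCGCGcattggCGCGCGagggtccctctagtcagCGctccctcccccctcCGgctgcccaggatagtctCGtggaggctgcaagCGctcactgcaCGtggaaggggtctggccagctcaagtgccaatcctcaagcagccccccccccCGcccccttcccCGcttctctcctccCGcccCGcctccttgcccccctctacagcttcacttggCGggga
The CpG count was 14 in the Nkx2-3 stretch, 10 in Tbx1 and 19 in Nkx1-2, a homeobox gene of the early spinal cord. Each regulator in the RefSeq table was then taken at its promoter with the most CpG. The median was 15 for the 17 called and 14 for the 26 never called. Of 21263 coding promoters of this length in the RefSeq table, 93.4% hold at least 1 CG and the median holds 10. All promoters of a gene count here, so this median is not like for like with those of the regulators.

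The regulators that carried the mark most often were Six5 and Nkx2-3. Six5, a homeobox gene beside the myotonic dystrophy gene Dmpk, lies at chr7:19094544-19098549 on the plus strand. It was called in 6 of the 7 lists, all but LFD-LSK replicate 4. Its peak was 2634, 3422 and 2255 bp wide in HFD-LSK replicates 1 to 3 and 2100, 1036 and 2251 bp in LFD-LSK replicates 1 to 3. Ranked by width among the peaks of all called coding genes of the list, with 100 the widest, these were at 98.8, 97.4 and 98 in HFD-LSK and 98.2, 48.8 and 97.4 in LFD-LSK. So the Six5 peak was among the broadest in 5 lists and of middle width in LFD-LSK replicate 2. Its fold enrichment, the height of the summit over the local background, ranked lower than its width, at the 43.8, 55.4 and 89.5 percentiles in HFD-LSK and 32.3, 4.92 and 54.6 in LFD-LSK. The HFD-LSK and LFD-LSK ranks overlapped on both measures. No other gene's start lay in the Six5 window.

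Nkx2-3, a homeobox gene that shapes the vessels of the spleen and gut, lies at chr19:43612325-43615892 on the plus strand. It was called in all 3 HFD-LSK lists and in LFD-LSK replicates 2 and 3. The peak over its start was 1995, 7446 and 1093 bp wide in HFD-LSK replicates 1 to 3 and 2767 and 1142 bp in the 2 LFD-LSK lists, at width percentiles of 95, 100, 66.1, 98.3 and 68. Its fold enrichment ranked at 43.8, 38.3 and 59.8 in HFD-LSK and 39 and 61.3 in LFD-LSK, so the diets overlapped. The start sat within a row of peaks, from 5615 bp before it to 4570 bp after it in HFD-LSK replicate 1. The lists of LFD-LSK replicates 1 and 4 held a single peak within 12 kb, with its summit 5070 and 5625 bp before the start, and so did not count as calls. The start of the noncoding gene Gm20467 lies inside the window and under 4 of the 5 peaks, so the mark cannot be given to Nkx2-3 alone.

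**Figure D3:**
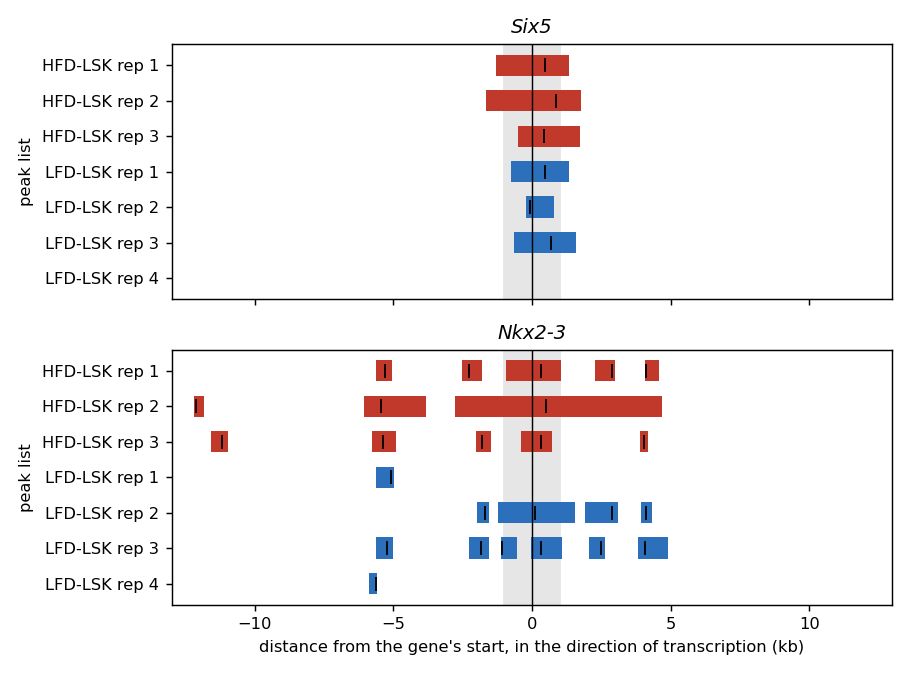
Peaks around the starts of Six5 and Nkx2-3 in the 7 lists (bars, red for HFD-LSK and blue for LFD-LSK, black ticks their summits) by distance from the start in kb along the direction of transcription (x axis), with the 1 kb window shaded. Six5 shows 1 peak over the start in 6 lists, and Nkx2-3 a row of peaks, widest in HFD-LSK replicate 2 (7446 bp).

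Another 3 regulators were called in 3 lists. Tbx1, the T-box gene of the pharyngeal arches and outflow tract, had peaks of 1325, 900 and 269 bp in HFD-LSK replicates 2 and 3 and LFD-LSK replicate 3, at fold percentiles of 41.4, 69.9 and 2.83. Irx3, an Iroquois gene that patterns the neural tube, had peaks of 1156, 377 and 366 bp in the same 3 lists, at fold percentiles of 8.97, 18.7 and 11.8. Six4, of muscle and sensory ganglia, was called in HFD-LSK replicate 2 and LFD-LSK replicates 2 and 4. Its widest peak, 2179 bp in HFD-LSK replicate 2, also covered the start of the coding gene Mnat1, a subunit of the general transcription machinery, whereas its 681 and 612 bp peaks in LFD-LSK did not.

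A further 8 regulators were called in 2 lists. Of these, 5 were called in HFD-LSK replicates 2 and 3 alone: Dlx1 of cortical interneurons, Lhx2 of the eye and forebrain, Lhx4 of the pituitary, Nkx3-2 of the axial skeleton, and Tbx6 of the paraxial mesoderm. Dlx1 ranked at the 2.05 and 55 fold percentiles, Lhx2 at 8.30 and 13.1, Lhx4 at 0.204 and 10.7, Nkx3-2 at 2.31 and 19.4, and Tbx6 at 1.75 and 81.6. Each thus stood at 8.30 or lower in replicate 2, and Tbx6 was the only one above 60 in replicate 3. The remaining 3 were each called in 1 HFD-LSK list and in LFD-LSK replicate 4. These were Irx2, whose 224 bp peak in LFD-LSK covered the start of the noncoding gene Gm20554, Lhx6 of cortical interneurons, and Tbx21. Tbx21, the one regulator with a settled role in lymphocytes, had peaks of only 404 bp in HFD-LSK replicate 3 and 267 bp in LFD-LSK replicate 4, at width percentiles of 8.44 and 6.96.

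The last 9 were called in 1 list. Those from HFD-LSK replicate 3 included Dlx6 of the face, Lhx9 of the gonad, Nkx6-1 of pancreatic beta cells and motor neurons, and Tbx2 of the heart and limb. Another 3 came from HFD-LSK replicate 2, namely Irx5, Lhx8 of cholinergic neurons, and Tbx18 of the epicardium. The strongest of 2 Irx5 peaks covered the start of the noncoding gene Crnde. Dlx4 was called in LFD-LSK replicate 3 and in no other list.

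**Figure D4:**
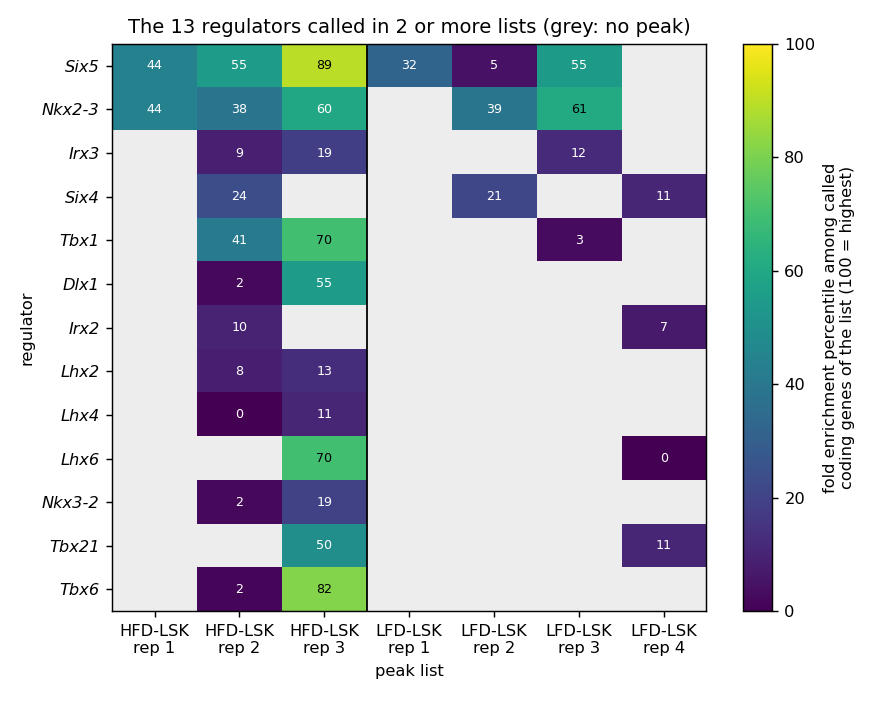
The 13 regulators called in at least 2 lists (rows) in the 7 lists (columns), colored and labeled by the fold enrichment percentile of the strongest peak in the window among all called coding genes of the list, with grey for no peak. Six5 and Nkx2-3 fill 6 and 5 lists, and most other calls sit in HFD-LSK replicates 2 and 3.

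By family, the sine oculis homeobox genes gave 10 of the 45 calls, with 3 of 6 called at least once. Lhx had 5 of 8 called, Tbx 5 of 13, Dlx and Irx 3 of 6 each, and Nkx 3 of 14. The share was 62.5% for Lhx, 50% for the sine oculis, Dlx and Irx genes, 38.5% for Tbx and 21.4% for Nkx. Of coding genes 54.6% were called at least once, so Lhx lay above this share and the families at 50% close to it. No Pax gene was called in any list, nor were 45.4% of coding genes. With 6 to 14 genes per family, these shares are coarse. Pax1 and Pax9 of the vertebrae, Pax2 of the kidney, Pax3 and Pax7 of muscle precursors, Pax4 of the pancreas, Pax6 of the eye and Pax8 of the thyroid were all without a peak, and only Pax3 had one within 10 kb, 6553 bp away. The never called Nkx genes included Nkx1-1, Nkx1-2, Nkx2-1 of thyroid and lung, Nkx2-2, Nkx2-4, Nkx2-5 of the heart, Nkx2-6, Nkx2-9, Nkx6-2 and Nkx6-3. The never called T-box genes were Tbx3, Tbx4 and Tbx5 of the limbs, Tbx10, Tbx15, Tbx19 of the pituitary, Tbx20 of the heart and Tbx22 of the palate. Lhx1, Lhx3, Lhx5, Dlx2, Dlx3, Dlx5, Irx1, Irx4, Irx6, Six2, Six3 and Six6 were not called either. Of these 39, 6 (15.4%) had a peak of any list within 10 kb, against 10.6% of never called coding genes. Neighbors in the genome were not called as blocks: Six4 was called and Six6 near it was not, Irx3 and Irx5 but not Irx6, and Dlx1 but not Dlx2. The stretch of chromosome 12 with Nkx2-1, Nkx2-9 and Pax9 and that of chromosome 2 with Nkx2-2, Nkx2-4 and Pax1 held no called regulator.

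Where a regulator carried a peak, it was usually small. The median fold percentile of the 45 calls was 22 and the median width percentile 29.4, where 50 is the middle of all called coding genes. Without the 11 calls of Six5 and Nkx2-3, the medians of the other 34 calls were 12.5 for fold and 13.7 for width. Only 10 of 45 calls exceeded the middle by fold and 14 by width. In HFD-LSK replicate 2 the regulators' peaks had a median width of 799 bp against 1349 bp for coding genes, and in replicate 3, 600 bp against 883 bp. LFD-LSK replicates 2 and 4 had medians of 1036 and 246 bp against 1052 and 566 bp. The order was the reverse in 3 lists with 1 to 5 calls, in which Six5 was always called, with 2315 against 929 bp in HFD-LSK replicate 1, 2100 against 783 bp in LFD-LSK replicate 1 and 1142 against 901 bp in LFD-LSK replicate 3. The strongest peak covered a start of the gene in 24 of the 45 calls, and 34 summits lay downstream of it. The number of fragments under a summit could be worked back for 38 calls and had a median of 13, against 4 to 21 for the weakest summit of a list.

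**Figure D5:**
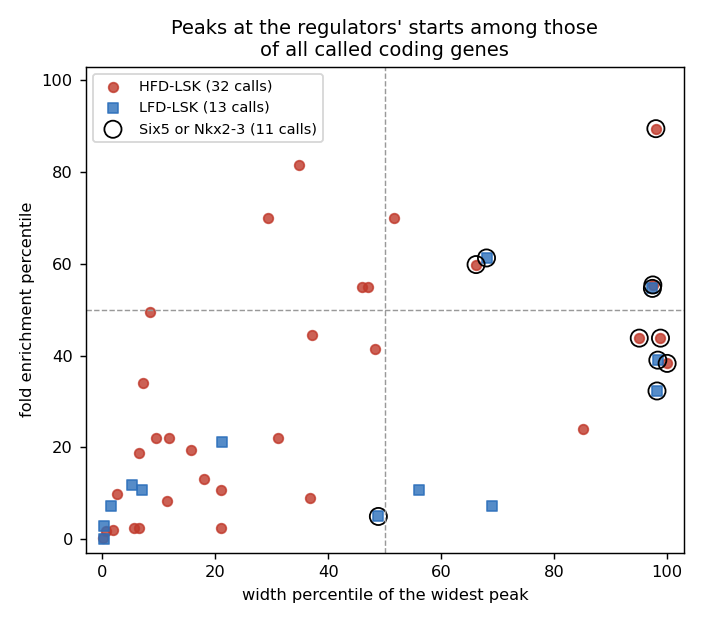
Width percentile (x axis) and fold enrichment percentile (y axis) of the 45 calls of regulators among the called coding genes of the same list, red circles for HFD-LSK and blue squares for LFD-LSK, with Six5 and Nkx2-3 ringed. Dashed lines mark the middle of the called coding genes, and most calls lie at the lower left, whereas 10 of the 11 ringed calls lie to the right.

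The diet comparison asks whether the mark at these genes differed between obese and lean mice. The share of regulators called was 17.5% ± 12.4 (SD, n = 3) in HFD-LSK and 5.33% ± 2.80 (SD, n = 4) in LFD-LSK, and the ranges overlapped, since HFD-LSK replicate 1 (2 regulators) fell within the LFD-LSK range (1 to 5). The same shares for coding genes were 46.9% ± 5.28 and 39.1% ± 6.94. The excess came from HFD-LSK replicates 2 and 3, which held 30 of the 45 calls (66.7%), against 33.2% of the calls of coding genes. A comparison added after seeing the data left out both libraries, so that HFD-LSK replicate 1 alone stood against the LFD-LSK libraries. The difference of 12.2 percentage points then turned to -2.05, and that of coding genes went from 7.84 to 2.93. Because the lists with the most regulators were the ones removed, a fall followed from the choice. With the same number of peaks taken from each list the difference in regulators was 3.83 points, with 2, 4 and 7 regulators in HFD-LSK and 1, 1, 2 and 4 in LFD-LSK. The coding genes then differed by 0.361 points, at 33.8%, 34.2% and 31.2% in HFD-LSK and 33.4%, 33.4%, 32.9% and 31.1% in LFD-LSK. These 2 lists are also the longest, with 13094 and 11977 peaks, and have the lowest shares of peaks at coding starts (80.3% and 79.3%). The fewest fragments that made a summit were 16 in HFD-LSK replicate 1, 8 in replicate 2 and 4 in replicate 3, against 21, 10, 8 and 10 in LFD-LSK. Of 6 markers of marrow stroma and bone, Pdgfrb and Cxcl12 were called in HFD-LSK replicate 2, none in replicate 3, and 1 each in LFD-LSK replicates 2 and 4. The part of these in the result was not tested. The study drew on more than 1 cohort of mice. Its methods keep the diets compared within a cohort and account for batch and for paired samples. The labels give no cohort or pairing for a library, so neither could be entered here.

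Of the called regulators, 13 (59.1%) were found in HFD-LSK only, every one in replicates 2 or 3 alone, 1 (Dlx4) in LFD-LSK only, and 8 in both. Of the called coding genes, 1023 (8.74%) were found in HFD-LSK only and 108 (0.923%) in LFD-LSK only. Regulators were mostly called in few lists, and other such genes gave a closer background. Of genes called in 1 list, 8 of 9 regulators (88.9%) and 88.4% of 774 coding genes had their call in HFD-LSK replicate 2 or 3. Of genes called in 2 lists, 5 of 8 regulators (62.5%) and 44.4% of 660 coding genes were called in those 2 libraries alone. By Fisher's exact test, two-sided, no regulator passed a p of 0.05 between the diets. The largest contrast was a call in 2 of 3 HFD-LSK and in no LFD-LSK library (Dlx1, Lhx2, Lhx4, Nkx3-2 and Tbx6), for which Fisher's exact test gave p = 0.143, and the Benjamini-Hochberg adjusted p over the 11706 coding genes tested was 1. The smallest exact p that this design allows is 0.0286, when the calls separate the diets fully. After adjustment it could pass 0.05 only if a large part of the tested genes separated the diets in this way. The adjusted p therefore cannot decide whether a regulator differed between the diets. Of the coding genes tested, 34 (0.29%) were called in every HFD-LSK and no LFD-LSK list and 0 (0%) in the reverse, and no regulator was among them. Ranks were to be tested between the diets only for genes called in all 7 lists, and no regulator was. Over the 6 lists that called Six5, 3 of each diet, an exact permutation test of its rank gave p = 0.2 for fold and p = 0.4 for width. The smallest p possible there is 0.1, so the test could not reach 0.05. It also leaves out LFD-LSK replicate 4, where Six5 had no peak, and so cannot decide whether its rank differed between the diets.

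Lists of other genes placed these shares. Of 50 further developmental regulators (such as Gbx, Msx, Otx and Ascl genes), 13 were called at least once, with 1, 10 and 10 in HFD-LSK and 1, 1, 3 and 3 in LFD-LSK. Gbx2, a homeobox gene of the midbrain-hindbrain boundary, was the only one of them called in all 7 lists. Of 15 homeobox and LIM genes used by blood cells, 14 were called at least once and 10 in all 7 lists, among them Meis1, Hhex, Pbx3 and Lmo4. Lmo2 was not called in any list. Meis1, a homeobox gene of stem cells, had a mean fold percentile of 73.2 and a mean width percentile of 86.2 over the 7 lists. The blood list was called at 73.3% to 93.3% per list, above the share of coding genes in each list, whereas the 61 regulators were below it in each. Both lists were picked with earlier results of these data known, so this contrast is a description and not a test.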

How the data were processed

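H3K4me3 profiling of sorted LSK cells gave 7 peak lists, 3 of HFD-LSK and 4 of LFD-LSK, grouped by their labels. The labels name the assay CUT&RUN and the paper CUT&Tag. The submitters' processing notes name Trim Galore, Bowtie2, Picard, MACS2 and GRCm38, whereas the paper's methods give SEACR and GRCm39. The deposited lists are MACS2 narrow peaks on GRCm38. Per peak the authors deposited fold enrichment over the local background, −log10 p- and q-values against it, and a score. The lowest −log10 p was 5.01. Fold depends on the depth of its own library and was only ranked within a list.

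Starts were the 5′ ends of RefSeq genes and the starts of the RefSeq promoter table (GRCm38.p6, 43 of the 61 regulators), with missing strands taken by symbol from GENCODE vM39. They covered 98.0% of 21887 coding genes, with 1.46 starts per regulator and 1.50 per coding gene. For 17 regulators another gene starts inside the window. CpG ratios came from GRCm39 sequence at GENCODE starts of the same symbols (61 regulators, 19111 coding genes), and no coordinate was converted. Fragments at a summit were obtained by inverting the MACS2 arithmetic, which solved 89.7% to 98.5% of peaks, and a gene without a call may still carry the mark. Regulators and gene lists were chosen with earlier results of these data known. Values in every library were given for regulators called in at least 4 lists with the highest mean width percentile, which were Six5 and Nkx2-3, and other regulators were named with their calls, except for a few that are not reported here. Fisher's exact test was run per gene on presence over libraries with Benjamini-Hochberg adjustment, in scipy 1.17.1. The steps were run on simulated lists with known calls and fragments. In these the starts lay far apart, and summits as weak as the weakest of most lists were not simulated. The simulation thus checks the code and not the calls at the depth of these libraries. Alternatives covered the window (3 kb, 500 bp), stricter or equal numbers of peaks, coverage, shared windows, ordering, each library left out and pairing by replicate number.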

Additional observations from a re-analysis of the deposited data

How the results depend on the processing

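The number of regulators never called (39) changed by at most 1.5 times with every alternative run. Some alternatives covered fewer regulators, such as 28 never called of 44 with shared windows left out. The mean share of regulators called over the lists was 10.5%. The median width percentile, averaged over lists with at least 3 calls, was 32.5. Both moved by less than the spread between libraries with every alternative run. For the share that spread is wide (SD 9.88), and the share fell by 1.5 times or more in 4 alternatives, to 6.79% with a −log10 q of at least 5, 7.03% with at least 500 bp of the window covered, and 4.92% both with equal numbers of peaks per list and without HFD-LSK replicates 2 and 3. Leaving out 1 library at a time gave 7.92% to 12% for the share, 39 to 44 never called, and 23.6 to 39.6 for the width percentile. The fold percentile, averaged in the same way (18.5), ran from 12.7 to 21.0 without single libraries. The fold percentile was 38.1 with a −log10 q of at least 5 and 32.7 with at least 500 bp of the window covered, so it stayed below the middle of called coding genes. The count of regulators called in all lists was 0 to 1, since without LFD-LSK replicate 4 Six5 was called in every list. The difference of 12.2 percentage points between HFD-LSK and LFD-LSK ran from 7.79 to 19.3 without single libraries. It was 3.83 with equal numbers of peaks per list. It was -2.05 without HFD-LSK replicates 2 and 3, which removes the lists with the most regulators and leaves 1 HFD-LSK library. That choice was made after seeing the data, as were 3 others. Of these, 5′ ends alone gave a share of 8.67%, 42 never called and a width percentile of 43, genes of the promoter table alone a share of 13.3%, 26 of 43 never called and a fold percentile of 25.1, and summits inside the window a share of 9.84% and 41 never called. Whether the replicate numbers pair the libraries was not tested. Same-number correlations between the diets were 0.161, 0.00935 and 0.0433, and those of different numbers ran from -0.152 to 0.0451. With the replicate block the difference was 12.6 points. A regulator below 4 to 21 fragments at its summit, depending on the list, could not be called, so weak H3K4me3 at the 39 was not detectable at this depth.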

Other observations

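Away from the 1 kb window, peaks of any list came near 6 of the 39 regulators that were never called. Tbx10 had a peak within 10 kb in all 7 lists, the nearest 7088 bp from its start. Nkx6-3 had one in 3 lists, with the nearest at 3063 bp. Nkx1-1 and Nkx1-2 each had one in 2 lists, the nearest at 1850 and 1947 bp, and Nkx6-2 had one in 1 list at 1368 bp. Pax3 had one in 1 list at 6553 bp. Whose regulatory element these peaks mark was not tested. At the other end, Irx1 lay 664710 bp from the nearest peak of any list.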
